A study of Rattus norvegicus with 11 samples.

Results

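The Egr family holds the zinc finger transcription factors Egr1, Egr2, Egr3 and Egr4. The rule takes its genes by name and uses no measured value, although earlier results of these data were known when the family was chosen. All 4 genes were present among the 15607 genes of the deposited table. They were read by Ensembl identifier, ENSRNOG00000019422 for Egr1, ENSRNOG00000000640 for Egr2, ENSRNOG00000017828 for Egr3 and ENSRNOG00000015719 for Egr4.

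Egr genes are immediate early genes. In neurons their transcription starts within minutes of synaptic activity or growth factor signaling and needs no new protein, because the kinases that act on serum response factor, on its partner Elk1 and on CREB use factors already present in the cell. The Egr proteins then bind GC-rich sites in other genes, and their mRNAs are widely used to map recently active neurons in the cortex.

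The data were RNA sequencing libraries from tissue punches of the medial prefrontal cortex (mPFC) of pair-housed Sprague-Dawley rats. The age of the rats is given as 8 weeks. There were 4 libraries from males, 4 from females in diestrus and 3 from females in proestrus. Stages were read from daily vaginal smears of regularly cycling females, and males lived in a separate room. Tissue from diestrus, when ovarian hormones are low, was taken at the start of that stage and early in the day, and tissue from proestrus, when they are high, after noon. Collection days were shared by the sexes. The hour of collection is not stated for males. Both females of a cage were killed once both were in the wanted stage, so libraries of a stage may come from cage mates. The stage and the hour of collection cannot be told apart, nor can sex, room and smearing.

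The libraries held 15.9 to 24.6 M reads on genes. Each gene had many reads in every library: 8095 to 16369 for Egr1, 465 to 1649 for Egr2, 276 to 1147 for Egr3 and 1818 to 4344 for Egr4. Because a punch holds many cell types, fewer cells that express a gene and less RNA per cell cannot be told apart. The markers of cortical cell types were not read here, so the tissue label was not checked against them.

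The 250 bases before the annotated start of transcription were available for 3 of the 4 genes, from RefSeq on the rat assembly GRCr8. They are shown with the letters that serum response factor and CREB are known to prefer. Egr1 is on chr18:26736828-26737077 (+ strand), Egr2 on chr20:21054442-21054691 (- strand) and Egr4 on chr4:119607818-119608067 (- strand). Capitals mark each CArG box, the site of serum response factor, and each half-site of the cAMP response element (CRE), CGTCA, searched on both strands as CGTCA or TGACG.
Egr1: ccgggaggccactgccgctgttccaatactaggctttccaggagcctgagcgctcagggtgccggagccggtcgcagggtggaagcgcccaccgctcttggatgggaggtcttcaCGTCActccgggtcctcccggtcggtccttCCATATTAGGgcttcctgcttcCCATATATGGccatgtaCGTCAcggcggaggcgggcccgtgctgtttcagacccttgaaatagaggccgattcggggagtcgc
Egr2: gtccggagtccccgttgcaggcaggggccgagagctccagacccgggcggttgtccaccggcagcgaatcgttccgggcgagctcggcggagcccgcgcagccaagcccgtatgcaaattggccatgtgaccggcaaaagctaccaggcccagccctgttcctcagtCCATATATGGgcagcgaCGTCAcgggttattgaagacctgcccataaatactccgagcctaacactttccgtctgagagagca
Egr4: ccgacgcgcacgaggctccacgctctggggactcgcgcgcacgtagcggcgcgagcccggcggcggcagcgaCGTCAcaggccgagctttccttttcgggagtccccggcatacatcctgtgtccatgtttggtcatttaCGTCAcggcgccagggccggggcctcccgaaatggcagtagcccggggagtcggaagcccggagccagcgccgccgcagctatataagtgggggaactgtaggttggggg

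Egr1 held 2 CArG boxes and 2 CRE half-sites, Egr2 held 1 of each, and Egr4 held 2 half-sites and no CArG box. The CArG box nearest the start had the same letters, CCATATATGG, in Egr1 and in Egr2. In both genes its last letter lay 73 bases before the start, and a half-site followed after 7 bases, with its last letter 61 bases before the start. Among 33469 RefSeq windows of this length, 18.2% held a CRE half-site, 1.5% a CArG box and 0.230% both. The full CRE, TGACGTCA, which contains the half-site, was in 1.59% of windows and in none of these 3. An Egr site, GCGGGGGCG or GCGTGGGCG, was in 2.85% of windows and likewise in none of these 3. The RefSeq record of Egr2 extends upstream of the start used. These matches describe the letters of the windows and are not measured binding.

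Egr1, Egr2 and Egr4 had higher mean levels in males than in either female stage, whereas Egr3 was low in diestrus and had like means in males and in proestrus. The values below are counts normalized for library size with DESeq2, and here they are compared between animals for 1 gene at a time.

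**Figure D1:**
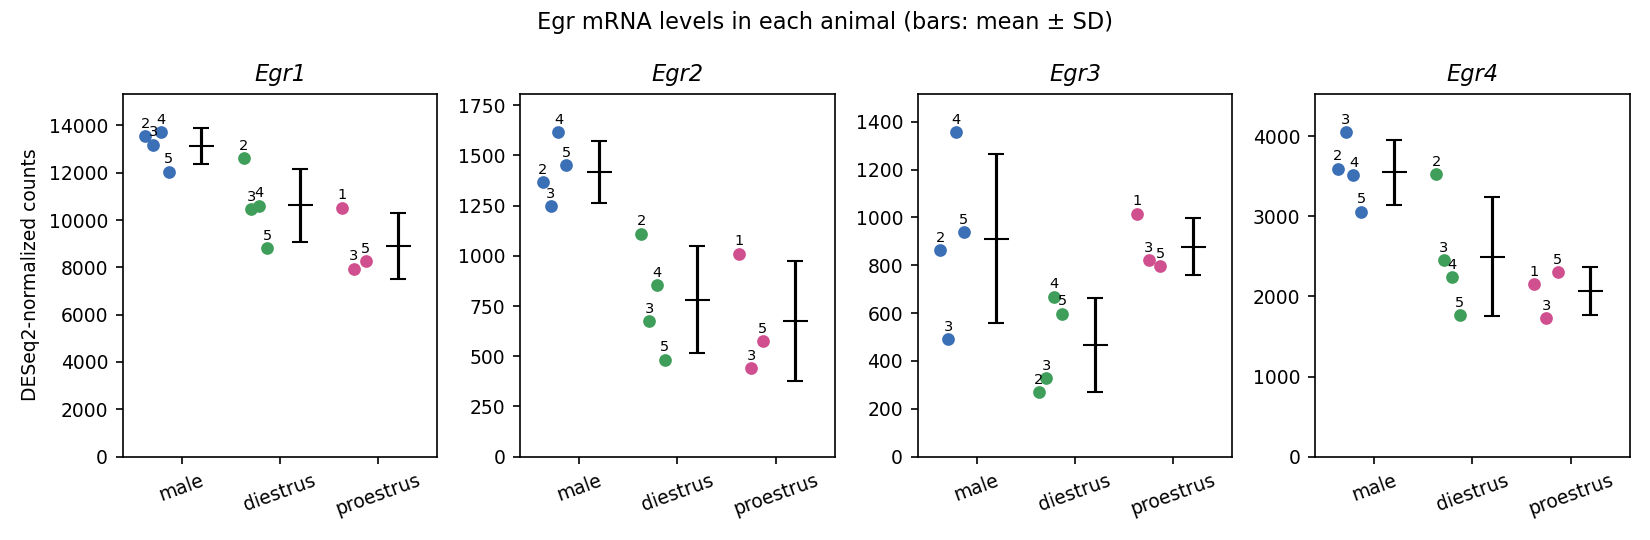
Normalized counts (vertical axes, from 0) of Egr1, Egr2, Egr3 and Egr4 in each library, with the replicate number beside each point and the mean ± SD of the group as a bar. Every proestrus library lay below every male library for Egr1, Egr2 and Egr4, as was so for 5.61% of all genes. For Egr3 every proestrus library lay above every diestrus library, as was so for 15.0% of all genes.

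Egr1, also known as Zif268, is the member most used as a marker of neuronal activity and plasticity. Its normalized counts were 13552, 13195, 13708 and 12047 in male replicates 2 to 5. They were 12616, 10449, 10616 and 8825 in diestrus replicates 2 to 5, and 10529, 7949.6 and 8249 in proestrus replicates 1, 3 and 5. Diestrus replicate 2 was the 1 female library inside the range of the males, and the 2 lowest libraries of all were in proestrus. The means were 13125 ± 750.4 in males (SD, n = 4), 10627 ± 1553 in diestrus (SD, n = 4) and 8909 ± 1411 in proestrus (SD, n = 3).

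Egr2, also known as Krox20, is known best as a driver of myelination in Schwann cells and is induced in forebrain neurons by activity. Its normalized counts were 1365, 1246, 1615 and 1451 in the males. They were 1109.9, 676, 853 and 483 in diestrus and 1011, 442 and 576 in proestrus. All 7 female libraries lay below all 4 male libraries, as was so for 0.737% of all genes, while the 2 female stages overlapped widely. The means were 1419 ± 155 in males, 780.3 ± 267 in diestrus and 676 ± 298 in proestrus.

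Egr3 is a family member that Egr1-inducing signals also activate, and it takes part in memory and in the response to stress in rodents. Its normalized counts were 863, 492, 1356 and 938 in the males, 270.4, 329, 668 and 598 in diestrus, and 1016, 822 and 797 in proestrus. The 3 proestrus libraries lay above all 4 diestrus libraries, as was so for 15.0% of all genes, and inside the range of the males. That range included both the highest library of all (replicate 4) and 1 library (replicate 3) within the range of diestrus. The means were 912 ± 354 in males, 466 ± 196 in diestrus and 878 ± 119.7 in proestrus.

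Egr4, also known as NGFI-C, is induced with the other members in brain and is needed for male germ cell development in mice. Its normalized counts were 3596, 4049, 3512 and 3059 in the males, 3530.4, 2457, 2239.6 and 1764 in diestrus, and 2154, 1728 and 2307 in proestrus. As for Egr1, only diestrus replicate 2 among the females reached the range of the males. The means were 3554 ± 406 in males, 2498 ± 747 in diestrus and 2063 ± 300.3 in proestrus.

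Proestrus and males were compared first, on the log2(normalized count + 1) scale with limma, taking genes past a false discovery rate (FDR) of 5% over all 15607 genes as changed. Egr2 had a log2 fold change of -1.15 (SE 0.27, 95% confidence interval -1.73 to -0.57), a level of 0.451 times that of males. Egr4 had -0.79 (SE 0.18, interval -1.18 to -0.40) and Egr1 had -0.57 (SE 0.12, interval -0.82 to -0.32). Egr3 was close to equal at 0.03 (SE 0.33, interval -0.68 to 0.73), and its sign turned with edgeR (-0.055) and DESeq2 (-0.054).

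None of the 4 genes passed the FDR in proestrus vs males with limma, where 0.0833% of all genes did. The adjusted p was 0.141 for Egr1, 0.204 for Egr2, 0.203 for Egr4 and 0.977 for Egr3. At an unadjusted p of 0.05, 3 of the 4 genes passed, compared with 11.3% of all genes. The quasi-likelihood test of edgeR on the reads recovered from the table also called 0 of the 4 (0.0833% of all genes). At an unadjusted p of 0.05, 3 of the 4 passed with edgeR, where 1722 of all 15607 genes did. DESeq2 on the same reads called Egr1 (adjusted p = 0.00526) and Egr4 (adjusted p = 0.0132) lower in proestrus, where it called 0.525% of genes lower. In 3 of the 4 genes, Egr1, Egr2 and Egr4, every proestrus library lay below every male library, as did 5.61% of all genes. The median log2 fold change of the 4 genes was -0.68, against 0.01 over all genes.

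All 4 genes had lower mean levels in diestrus than in males, where 47.8% of all genes had a log2 fold change below 0. Here Egr3 and Egr2 had the largest differences of the family. The log2 fold change was -0.98 for Egr3 (SE 0.30, interval -1.63 to -0.33) and -0.92 for Egr2 (SE 0.25, interval -1.46 to -0.39). It was -0.55 for Egr4 (SE 0.17, interval -0.91 to -0.19) and -0.31 for Egr1 (SE 0.11, interval -0.55 to -0.08). The 4 intervals excluded 0 before any correction for the number of genes, yet 0 of the 4 passed the FDR with limma, where 0.128% of all genes did. The adjusted p from limma ranged from 0.269 for Egr2 to 0.432 for Egr1. At an unadjusted p of 0.05, 4 of the 4 genes passed with limma, with edgeR and with DESeq2, compared with 9.62% of all genes with limma, and after adjustment neither edgeR (0.141% of all genes called) nor DESeq2 (0.780%) called any member. Only Egr2 of the 4 had all diestrus libraries below all male libraries, as did 1.92% of all genes. The median log2 fold change of the 4 genes was -0.73, against 0.01 over all genes.

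With the stages pooled, the 7 females had lower mean levels than the 4 males for every member. Of all genes, 45.5% had a log2 fold change below 0 in this comparison. The log2 fold change was -1.02 for Egr2 (SE 0.23, interval -1.51 to -0.53), -0.65 for Egr4 (SE 0.16, interval -0.99 to -0.31), -0.42 for Egr1 (SE 0.11, interval -0.66 to -0.18) and -0.55 for Egr3 (SE 0.35, interval -1.30 to 0.21). The value for Egr3 was -0.33 without male replicate 4 and -0.36 without diestrus replicate 2. By stage, Egr3 was at -0.98 in diestrus vs males and 0.03 in proestrus vs males. Among the 11731 genes averaging 50 normalized counts or more, the size of the Egr2 difference exceeded that of 99.8% of genes. None of the 4 passed the FDR with limma, where 0.135% of all genes did, and the adjusted p for Egr2 was 0.177. At an unadjusted p of 0.05, 3 of the 4 passed with limma and with edgeR, compared with 4.83% of all genes with limma, and edgeR called 0 after adjustment (0.147% of all genes). DESeq2 called Egr2 alone of the 4 (adjusted p = 0.0119), where it called 0.440% of genes lower. Only Egr2 had all female libraries below all male libraries, as did 0.737% of all genes.

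**Figure D2:**
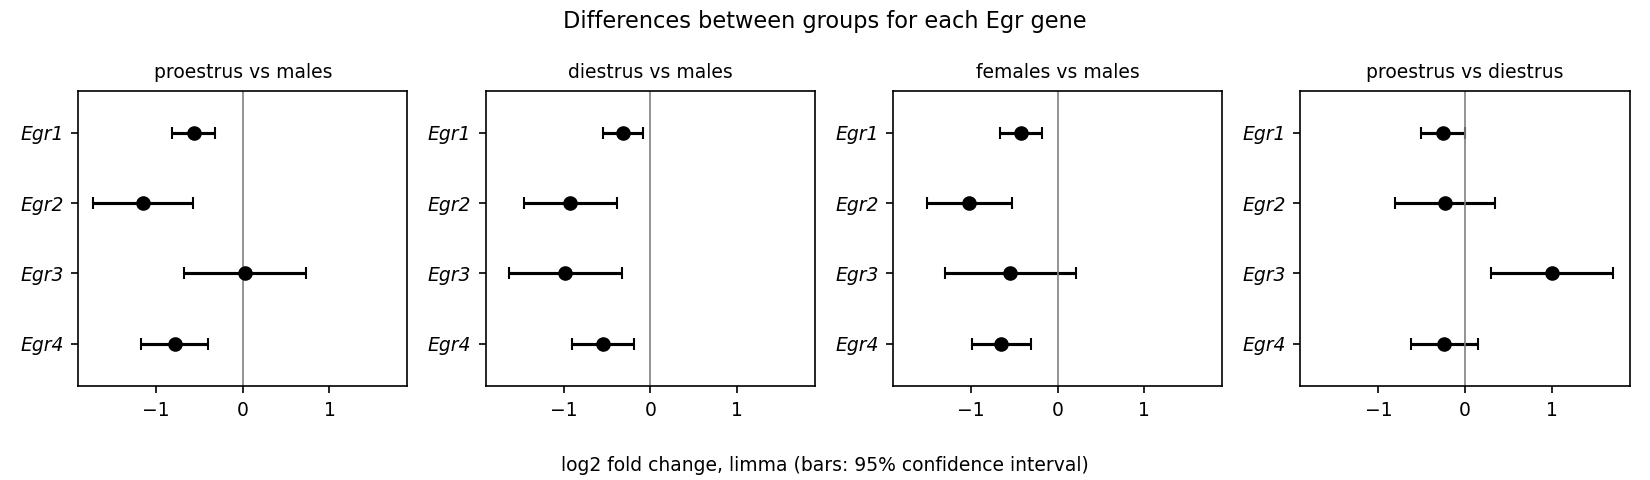
Log2 fold changes from limma (horizontal axes, points) with their 95% confidence intervals (bars) for the 4 Egr genes in the 4 comparisons. Egr1, Egr2 and Egr4 lay below 0 in the 3 comparisons with males, and Egr3 was the 1 gene above 0 between the stages, at 1.01.

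Between the stages, Egr3 was higher in proestrus than in diestrus by 1.01 on the log2 scale (SE 0.33, interval 0.30 to 1.71), which is 2.01-fold. The other members had small differences of the opposite sign: -0.25 for Egr1 (SE 0.12, interval -0.50 to -0.0049), -0.24 for Egr4 (SE 0.18, interval -0.63 to 0.15) and -0.23 for Egr2 (SE 0.27, interval -0.81 to 0.35). With limma, 0 of the 4 genes passed the FDR, where 2.53% of all genes did. The adjusted p was 0.105 for Egr3 and 0.181, 0.383 and 0.586 for Egr1, Egr4 and Egr2. Egr3 ranked 1251st of 15607 genes by p. At an unadjusted p of 0.05, 2 of the 4 genes passed with limma, edgeR and DESeq2 alike, compared with 26.7% of all genes with limma, and after adjustment edgeR (2.70% of all genes called) and DESeq2 (7.63%) called 0 members.

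Every proestrus library had more Egr3 than every diestrus library, as was so for 15.0% of all genes. The call for Egr3 depended on single libraries: its adjusted p from limma was 0.0434 without diestrus replicate 5 and 0.0389 without male replicate 3, which enters through the shared estimate of the spread. In those fits 11.4% and 7.35% of all genes passed. Over all 11 fits that left out 1 library, the log2 fold change of Egr3 stayed between 0.78 and 1.21 and its adjusted p between 0.0389 and 0.274. The differences of the others moved more relative to their size: Egr2 ranged from -0.56 without proestrus replicate 1 to 0.03 without proestrus replicate 3. Egr4 was -0.059 without diestrus replicate 2, -0.12 without proestrus replicate 3 and -0.39 without diestrus replicate 5, and Egr1 was -0.17 without diestrus replicate 2. Egr1 was also -0.14 with quantile normalization, where it no longer passed an unadjusted p of 0.05 (limma adjusted p = 0.378).

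Animals of a group differed more in Egr2, Egr3 and Egr4 than in most genes. The pooled SD of log2 values within groups was 0.18 for Egr1, 0.45 for Egr2, 0.55 for Egr3 and 0.29 for Egr4. Among the genes averaging 50 normalized counts or more, these exceeded the SD of 58.8%, 97.3%, 99.0% and 88.5% of genes. The spread was not even across groups. For Egr2 the highest library was 1.30-fold the lowest in males, but 2.30-fold in diestrus and 2.29-fold in proestrus, and for Egr3 it was 2.76-fold in males, 2.47-fold in diestrus and 1.27-fold in proestrus. These differences in spread between groups were not tested.

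Across the 11 animals, Egr1, Egr2 and Egr4 rose and fell together, and no relation of Egr3 with them passed the test. Pearson's r of log2 values was 0.944 between Egr1 and Egr2 (Spearman's rho 0.927), 0.912 between Egr1 and Egr4 (rho 0.836) and 0.865 between Egr2 and Egr4 (rho 0.773). By permutation tests, adjusted over the 14 relations computed, the p was 0.00084, 0.00103 and 0.00465 for r and 0.00294, 0.0115 and 0.0265 for rho. Leaving out the 2 libraries farthest from the median of the first gene gave r of 0.909, 0.875 and 0.732. In contrast, r was -0.015 between Egr1 and Egr3 (rho 0.20), 0.220 between Egr2 and Egr3 (rho 0.40) and -0.113 between Egr3 and Egr4 (rho -0.145), with adjusted p from permutation of 0.965, 0.798 and 0.965 for r and 0.783, 0.45 and 0.783 for rho. Without the 2 farthest libraries these r were -0.163, 0.377 and 0.102.

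Part of these relations comes from the difference between groups, so each group's mean was subtracted and values were permuted within groups only, which gives 3456 exact permutations. The r between Egr1 and Egr2 was then 0.915 (exact permutation p = 0.00752, adjusted p = 0.0527), and it stayed between 0.881 and 0.955 when any 1 library was left out. It was 0.773 between Egr1 and Egr4 (exact permutation adjusted p = 0.142) and 0.645 between Egr2 and Egr4 (exact permutation adjusted p = 0.181). For Egr3 it was -0.235 with Egr1, -0.0082 with Egr2 and -0.648 with Egr4 (exact permutation adjusted p = 0.72, 0.993 and 0.142). None of the 6 pairs passed an adjusted p of 0.05 once the group means were removed. Within single groups of 3 or 4 animals, r between Egr1 and Egr2 was 0.093 in males, 0.972 in diestrus and 0.981 in proestrus. In the same order it was 0.663, 0.978 and 0.404 between Egr1 and Egr4, and -0.594, 0.903 and 0.575 between Egr2 and Egr4.

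The order of the animals differed between the groups. In diestrus, replicates 2, 4, 3 and 5 ran from high to low for both Egr1 and Egr2, and replicate 2 was also highest for Egr4, but replicate 2 was lowest for Egr3. In proestrus, replicate 1 was highest for Egr1, Egr2 and Egr3. Males did not show the pattern of diestrus: Egr2 and Egr3 shared the order of replicates 4, 5, 2 and 3, whereas replicate 5 was lowest for Egr1 and Egr4 and replicate 3 was lowest for Egr2 and highest for Egr4. The relation between Egr1 and Egr2 within groups therefore rested on the females. From lowest to highest, Egr1 varied 1.14-fold in males, against 1.43-fold in diestrus and 1.32-fold in proestrus. With so narrow a range, the 4 males cannot show whether the relation is absent in males. With 3 or 4 animals in a group these orders are descriptions.

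**Figure D3:**
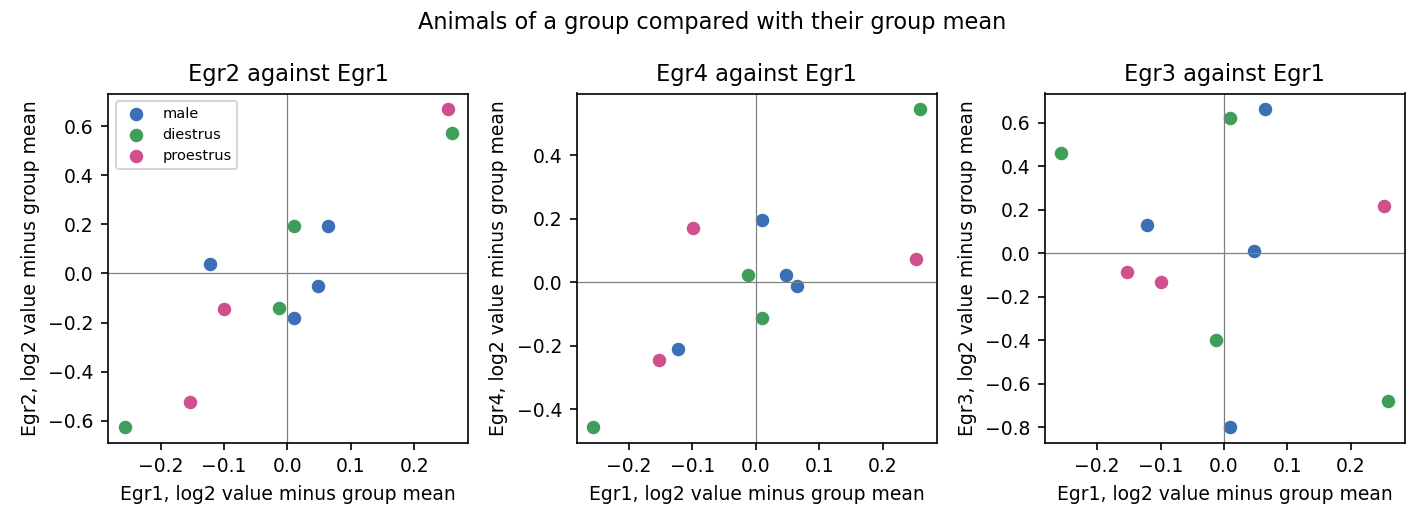
Log2 values of Egr2, Egr4 and Egr3 (vertical axes) against Egr1 (horizontal axes), each as the distance from its group mean, with 1 point per library colored by group. The Egr2 points rise along the diagonal (r = 0.915), the Egr4 points less tightly (r = 0.773), and the Egr3 points follow no line (r = -0.235). Among the males alone, r for Egr2 was 0.093.

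Over all libraries, Egr3 rose with the main axis of variation among them. This axis was the first principal component of the 500 most variable genes, the 4 Egr genes left out, and it held 24.8% of their variance. Scores ran from 10.2 to 15.1 in proestrus, from -16.8 to -0.77 in diestrus and from -12.1 to 13.0 in males. Pearson's r between the score and Egr3 was 0.879 (rho 0.864, permutation adjusted p = 0.00103 for r and 0.00826 for rho), and 0.836 without the 2 libraries farthest from the median score. With the group means removed it was 0.902 (exact permutation p = 0.00492, adjusted p = 0.0527), and the score put the males in the order of replicates 4, 5, 2 and 3, which is their order for Egr3 and equally for Egr2. For the others r with the score was -0.336 for Egr1, -0.072 for Egr2 and -0.37 for Egr4 (permutation adjusted p = 0.605, 0.965 and 0.605), and rho was -0.164, 0.018 and -0.455 (permutation adjusted p = 0.783, 0.967 and 0.382). With the group means removed, r was -0.258 for Egr1, -0.0031 for Egr2 and -0.605 for Egr4 (exact permutation adjusted p = 0.633, 0.993 and 0.142; exact permutation p = 0.0425 for Egr4 before adjustment). The 20 genes with the most reads together held a share of all reads of 13.4% to 13.9% in diestrus, 12.01% to 13.4% in males and 11.3% to 13.4% in proestrus. It was highest among males in replicate 3, the male lowest in Egr3, and lowest in replicate 4, the male highest in Egr3, while proestrus replicate 5 had a share of 13.4% and an Egr3 level above all diestrus libraries. The part of this share in the Egr3 result, and what sets the axis, were not tested. The fraction of all genes with as large an r to the score was not computed, so the relation cannot be called particular to Egr3.

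**Figure D4:**
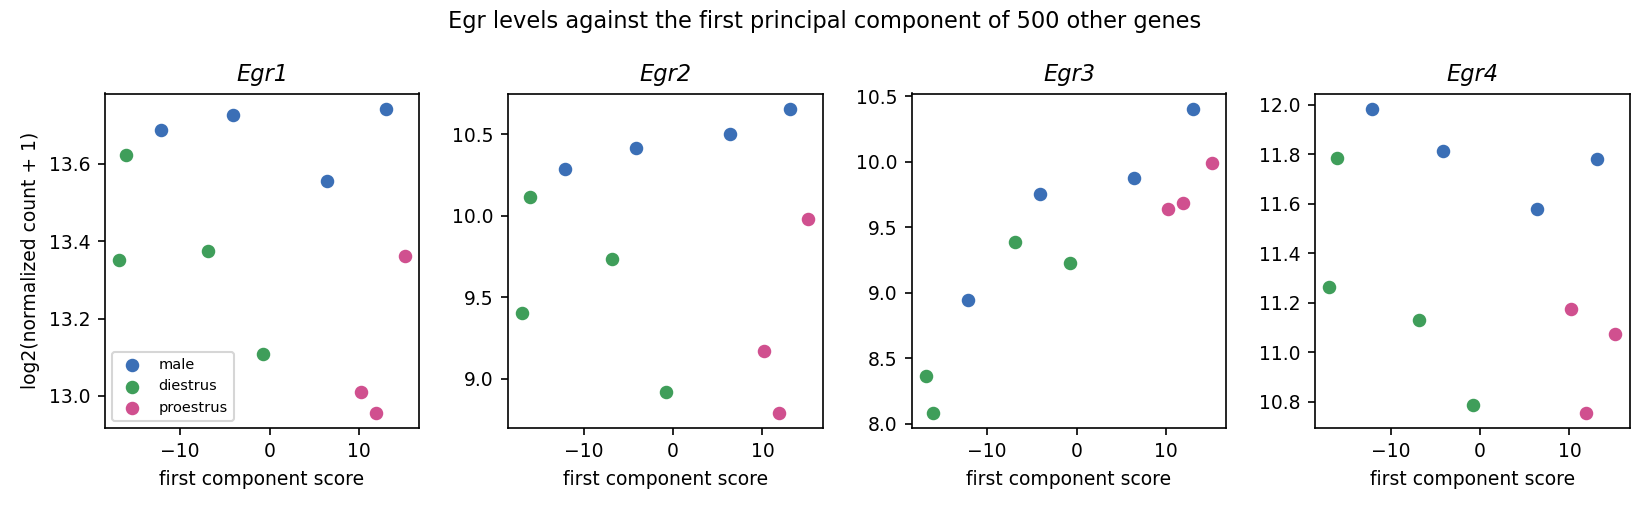
Log2(normalized count + 1) of each Egr gene (vertical axes) against the score of its library on the first principal component of 500 other genes (horizontal axes), with 1 point per library colored by group. Egr3 rises with the score (r = 0.879), while Egr1, Egr2 and Egr4 do not (r = -0.336, -0.072 and -0.37).

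The number of reads on genes, the remaining measure set against the family, gave r of -0.091 for Egr1, -0.265 for Egr2, -0.371 for Egr3 and -0.032 for Egr4 (permutation adjusted p = 0.965, 0.751, 0.605 and 0.965). The matching rho were -0.027, -0.182, -0.509 and 0.182 (permutation adjusted p = 0.967, 0.783, 0.326 and 0.783). Without the 2 libraries farthest from the median number of reads, r was 0.468, 0.318, -0.196 and 0.621. With the group means removed it was -0.415, -0.564, -0.298 and -0.204 (exact permutation adjusted p = 0.411, 0.142, 0.652 and 0.76).

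The genes whose levels were most like each member were found by r over the 11 libraries, among those averaging 50 normalized counts or more. Egr2 was the gene 2nd most like Egr1 of 11730, and Egr1 was 2nd most like Egr2. Egr4 came 10th for Egr1 and 24th for Egr2, while Egr3 came 6099th for Egr1 and 2249th for Egr2. With the group means removed, Egr2 was 4th for Egr1 and Egr1 1st for Egr2, but Egr4 came 87th for Egr1 and 180th for Egr2, and from the side of Egr4, Egr1 came 294th and Egr2 1306th. Of the 50 genes most like each member, Egr1 shared 32 with Egr2 and 30 with Egr4, Egr2 shared 26 with Egr4, and Egr3 shared 0 with any of them. The gene most like Egr3 was ENSRNOG00000013397 (r = 0.98), and ENSRNOG00000046667 stood among the 3 most like genes of Egr1, Egr2 and Egr4 (r = 0.936, 0.952 and 0.938). These r are descriptions over libraries that share their groups, and the deposited tables do not pair the identifiers with names.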

How the data were processed

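RNA from mPFC tissue punches of 11 rats was sequenced from poly(A)-selected, unstranded libraries. The submitters' processing notes and methods name Trimmomatic 0.32, TopHat2 2.0.11, Bowtie2 2.1.0, HTSeq 0.6.1p1, edgeR 3.6.7, DESeq2 1.4.5 and the assembly Rnor_5.0 with Ensembl release 76. The authors left out 1 proestrus library, which was not analysed here. The deposited values are a non-negative signal per gene and library, counts divided by DESeq2 size factors. Dividing by 1 constant for each library turned 100% of values into whole reads (tolerance 0.01). A second deposited table, described as edgeR-normalized, was not scaled for library size. Its values were the reads times 1 of 11 factors from 0.956 to 1.07 that cycled down the table irrespective of the library (100% of values), so they are not normalized values. It was used for comparison only.

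Groups came from sample labels. limma 3.58.1 with trend was run on log2(value + 1) over all genes (proestrus, diestrus and males in 1 fit, and 7 females with 4 males in another) with Benjamini-Hochberg adjustment at an FDR of 0.05. Alternatives were edgeR 4.0.16, DESeq2 1.42.0, a pseudocount of 5, a mean minimum of 50, quantile normalization, the second table, a replicate block, 2-group fits and leaving out each library. R 4.3.3, Python 3.11.15 and scipy 1.17.1 were used, with 100000 resamples for permutation tests. Tested on simulated data with 200 genes of 15607 changed by 1 on the log2 scale, limma recovered 69% for proestrus vs diestrus, 71% for proestrus vs males, 75.5% for diestrus vs males and 78.5% for females vs males. In this simulation each gene varied on its own, without variation shared between genes. It gave 10, 7, 9 and 8 false calls in this order. The rates average over all genes, so they are not rates for the Egr genes. No 2 libraries of a group agreed within sampling noise. Named genes were the 4 members and, of the 5 genes most like each, those stated. The members and lists were chosen with earlier results of these data known. Fixed lists of Egr regulators, partners, other activity-induced genes and cell markers were not analysed here, because the RefSeq table of 47357 genes pairs 0 with Ensembl identifiers. Promoters are on GRCr8, a different assembly from that of the counts.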

Additional observations from a re-analysis of the deposited data

How the results depend on the processing

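Of 300 refits of the 16 Egr differences, 280 kept direction and side of the FDR, 14 passed it and 6 turned sign. Those that turned were Egr3 in proestrus vs males, at -0.055 with edgeR, -0.054 with DESeq2, -0.042 with the edgeR-normalized table, -0.24 without male replicate 3 and -0.08 without proestrus replicate 1, and Egr2 between the stages, at 0.033 without proestrus replicate 3. Leaving out 1 library gave -0.24 to 0.25 for the former and -0.56 to 0.033 for the latter. Besides the DESeq2 and Egr3 calls given above, the edgeR-normalized table, whose factors do not follow the libraries, called Egr3 between the stages (limma adjusted p = 0.00275), Egr2 and Egr4 in proestrus vs males (5.36e-07 and 0.00487), Egr2 and Egr3 in diestrus vs males (0.000116 and 0.00148) and Egr2 in females vs males (0.000384). With it 3.5% of all genes passed between the stages (551 genes), 0.674% when males were set against proestrus, 0.687% against diestrus and 0.242% against all females. These calls cannot be read as calls on normalized values. Egr4 in proestrus vs males passed in the fit of these 2 groups (0.0347, with 0.147% of all genes called) and without diestrus replicate 2 (0.0455, with 0.109%), and in females vs males without diestrus replicate 2 (0.0125, with 0.154%). The cause was not tested.

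Counts of all genes past the FDR moved widely. For proestrus vs diestrus there were 395, with 1076 by DESeq2, 817 in the 2-group fit and 0 to 1774 when 1 library was left out; the limma counts of 0, without proestrus replicate 1 or 3, had 2766 and 2960 genes at an unadjusted p of 0.05. For proestrus vs males there were 13, with 118 by DESeq2, 106 with the edgeR-normalized table, 23 in the 2-group fit and 2 to 26 leaving out 1 library. For diestrus vs males there were 20, with 117, 108, 6 at a mean of at least 50 counts, and 1 to 88. For females vs males there were 21, with 77, 38, and 1 to 24. With the replicate number as a block the counts were 517, 3, 47 and 18 in this order, and no Egr gene was called. Because proestrus replicate 1 is the only library with its number, the block absorbed it. In this fit proestrus therefore rested on its other libraries. Deviations of same-numbered libraries from their group means correlated at 0.012 to 0.591 over 8 pairs, 6 of them over 0.1, and those of 32 differently numbered pairs at -0.67 to 0.58. Of 10 libraries with a same-numbered partner, 6 correlated best with it. Males and females were killed on the same days, but no label ties a number to a day, so the numbers were not taken as pairs.

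With group means subtracted, r between Egr2 and Egr3 went from 0.220 to -0.0082 and that between Egr2 and Egr4 to 0.645, no longer past 0.05 (exact permutation p = 0.0903). Set against all genes in place of those with a mean of at least 50 counts, the within-group SD exceeded 44.5%, 85.0%, 70.6% and 90.6% of genes for Egr1, Egr2, Egr4 and Egr3, in place of 58.8%, 97.3%, 88.5% and 99.0%.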

Other observations

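The levels of Egr2, Egr3 and Egr4 were also expressed as a percentage of Egr1 in the same library, a measure chosen after seeing the data. It cancels whatever moves both genes of a library alike, and its absolute size carries no meaning because the lengths of the transcripts differ. Egr3 was 9.65%, 10.3% and 9.66% of Egr1 in the proestrus libraries, 2.14%, 3.15%, 6.30% and 6.78% in diestrus and 6.37%, 3.73%, 9.89% and 7.78% in males. The 3 proestrus values lay above all 4 diestrus values and had the narrowest spread, with means of 9.88% ± 0.397 and 4.59% ± 2.29 (SD, n = 3 and n = 4). In normalized counts 15.0% of all genes were separated in this way, and for ratios to Egr1 the share was not computed. The two-sided exact permutation p for the Egr3 ratio between the stages was 0.0571, the smallest value this test can give for 35 splits. Adjusted over the 12 comparisons of ratios, it was 0.229.

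Egr2 was 7.27% ± 1.59 of Egr1 in the 7 females and 10.8% ± 1.27 in the 4 males, with 1 proestrus library (9.60%) inside the range of the males. The two-sided exact permutation p was 0.0121, and 0.145 adjusted, so the comparison failed the correction. Egr4 was 23.2% ± 3.42 of Egr1 in females and 27.1% ± 2.47 in males (exact permutation p = 0.0848, adjusted p = 0.255).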
